A study of Mus musculus with 64 samples.

Results

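The genes described here encode the proteins of the mitochondrial ribosome. They were taken by name, as every gene on the array whose symbol starts with Mrpl or Mrps followed by a digit, which gave 76 of 19503 genes, 48 with Mrpl and 28 with Mrps names, each measured by 1 probeset. RNA of the proximal colon was measured on 64 arrays from male BXD mice, a panel of inbred strains bred from C57BL/6J and DBA/2J. The panel comprised 32 strains, namely 30 BXD strains and both parental strains, and each strain gave 1 array on a chow diet (CD) and 1 array on a high-fat diet (HFD). Fat made up 18% of the calories of CD and 60.3% of those of HFD, carbohydrate 58% and 21.4%, and protein 24% and 18.3%. All mice ate CD to 8 weeks of age, then CD or HFD for 21 weeks, and were killed at 29 weeks after refeeding for 4 h. Each array held RNA pooled from about 5 mice of 1 strain and diet, so the animals behind a value cannot be told apart, and a diet group is 32 strains rather than repeats of a single genotype. Values are log2 intensities. A difference of 1 is a doubling of signal, and because signal depends on the probes, levels of different genes were not compared as amounts of RNA.

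Mitochondria keep their own genome and translate its few messages, all of them for subunits of the respiratory chain and ATP synthase, on a ribosome of their own. Its RNAs are made inside the organelle, whereas all of its proteins are encoded in the nucleus, made in the cytosol and imported. Many of these proteins descend from the bacterial ancestor and others were added later. In the colon, mature absorptive cells rely on mitochondrial oxidation of butyrate. Of the 76 genes, 50 encode proteins of the large subunit, which joins amino acids, and 25 proteins of the small subunit, which reads the message. Mrps18a and Mrps30 carry small subunit names but their proteins sit in the large subunit, and Mrps36 encodes a protein of the alpha-ketoglutarate dehydrogenase complex rather than of the ribosome. It was kept because the choice was by name. A further 8 genes with such names in the RefSeq annotation, Mrpl53, Mrps6 and 6 pseudogenes, were not analysed here.

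Promoters in the RefSeq table (build GRCm38.p6, 250 bases before to 50 bases after each start) were found for 67 of the 76 genes, with 73 promoters in all. They were searched on both strands for short cores of 3 factors linked to genes of mitochondrial biogenesis, GCATGCGC for NRF1, CCGGAAG for ETS factors such as GABP and AAGATGG for YY1. The ETS core was present in 25 of the 73 promoters (34.2%) against 8.86% of all 32851 promoters in the table, the YY1 core in 13 (17.8%) against 6.34%, and the NRF1 core in 8 (11%) against 2.71%. Counted by gene and against genes on the array only, the shares were 37.3% against 13.2% for the ETS core, 19.4% against 7.29% for YY1 and 11.9% against 4.1% for NRF1. In all, 37 of the 67 genes held at least 1 of the cores. A match describes the letters only and does not show that a factor binds there. The 6 promoters below belong to genes on which the results turn, 4 that followed the whole set most closely or were strain-dependent with an ETS core (Mrps21, Mrpl18, Mrpl21, Mrps33) and the strain-dependent genes Mrpl35 and Mrpl20. Each is written 5′ to 3′ on the strand of its gene, with the matched core in capitals on whichever strand it lies.
Mrps21 (chr3:95871465-95871764, minus strand): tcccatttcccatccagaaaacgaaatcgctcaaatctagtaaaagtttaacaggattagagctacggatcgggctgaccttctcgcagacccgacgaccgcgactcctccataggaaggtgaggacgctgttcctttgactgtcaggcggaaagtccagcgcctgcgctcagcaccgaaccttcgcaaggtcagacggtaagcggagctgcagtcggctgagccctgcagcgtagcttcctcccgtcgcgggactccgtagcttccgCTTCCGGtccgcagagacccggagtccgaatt
Mrpl18 (chr17:12916042-12916341, minus strand): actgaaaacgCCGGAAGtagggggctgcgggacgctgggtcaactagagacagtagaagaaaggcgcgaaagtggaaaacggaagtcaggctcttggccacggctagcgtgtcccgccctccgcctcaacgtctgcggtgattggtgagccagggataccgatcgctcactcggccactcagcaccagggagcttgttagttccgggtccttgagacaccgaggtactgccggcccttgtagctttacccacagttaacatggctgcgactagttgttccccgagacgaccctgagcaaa
Mrpl21 (chr19:3282792-3283091, plus strand): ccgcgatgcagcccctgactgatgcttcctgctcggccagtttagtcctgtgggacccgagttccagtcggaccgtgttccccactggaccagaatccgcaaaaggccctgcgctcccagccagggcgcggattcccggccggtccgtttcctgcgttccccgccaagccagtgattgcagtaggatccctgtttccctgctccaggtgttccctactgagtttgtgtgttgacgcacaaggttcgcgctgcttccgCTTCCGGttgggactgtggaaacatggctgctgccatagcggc
Mrps33 (chr6:39810887-39811186, minus strand): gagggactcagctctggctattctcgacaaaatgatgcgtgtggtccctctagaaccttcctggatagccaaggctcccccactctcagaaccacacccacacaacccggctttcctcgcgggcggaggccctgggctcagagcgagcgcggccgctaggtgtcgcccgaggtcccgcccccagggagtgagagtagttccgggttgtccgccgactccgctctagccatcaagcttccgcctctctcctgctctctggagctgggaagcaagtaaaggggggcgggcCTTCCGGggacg
Mrpl35 (chr6:71823735-71824034, minus strand): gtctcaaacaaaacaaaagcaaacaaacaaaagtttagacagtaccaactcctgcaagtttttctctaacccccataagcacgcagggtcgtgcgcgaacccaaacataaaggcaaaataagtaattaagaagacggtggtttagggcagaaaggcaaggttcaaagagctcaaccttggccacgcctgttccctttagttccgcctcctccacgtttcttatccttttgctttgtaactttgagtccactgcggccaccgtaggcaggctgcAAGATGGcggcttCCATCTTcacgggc
Mrpl20 (chr4:155802628-155802927, plus strand): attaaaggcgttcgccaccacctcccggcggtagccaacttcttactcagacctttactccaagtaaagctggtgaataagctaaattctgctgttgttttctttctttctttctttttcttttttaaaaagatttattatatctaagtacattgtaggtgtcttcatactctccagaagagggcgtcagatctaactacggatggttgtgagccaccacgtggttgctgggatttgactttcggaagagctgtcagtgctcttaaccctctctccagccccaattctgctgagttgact
The first 4 hold 1 ETS core each, Mrpl35 holds the YY1 core on either strand close to its start, and the window of Mrpl20 holds none of the 3 cores.

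Before the results, the arrays that stood apart should be stated. The median of all genes lay between 6.60 and 6.75 on the CD arrays and between 6.65 and 6.76 on the HFD arrays. The BXD81 CD and BXD49 HFD arrays correlated less with their own diet than all others, by more than 3 median absolute deviations. Under both parental labels the level of Mrpl20 was not kept from CD to HFD, as described next. One alternative fit also left out BXD87, BXD89 and BXD90, whose deviations from the diet means over all genes correlated between CD and HFD at 0.24, -0.02 and -0.03, beside a median of 0.21 over the 32 pairs. Strains that were kept had similar values, among them BXD51 (-0.04), BXD62 (0.00017) and BXD6 (0.03), so these values do not set the omitted strains apart. The parental pairs had 0.31 (C57BL/6J) and 0.02 (DBA/2J).

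The clearest difference among the 76 genes was that of Mrpl20 between strains. Mrpl20 encodes large subunit protein bL20m, whose bacterial counterpart acts early in the assembly of the large subunit. Its signal fell into 2 separate ranges, from 9.91 to 11.09 on 22 arrays and from 12.21 to 14.22 on 42 arrays, with no array in the 1.13 between. Each diet had 11 arrays in the lower range. All 30 BXD strains were on the same side of the gap under both diets, 10 in the lower range (BXD49, BXD48, BXD66, BXD48a, BXD62, BXD51, BXD39, BXD6, BXD11 and BXD40) and 20 in the upper range. In the 10 lower BXD strains the CD values were 9.95 at the lowest, 10.36 at the median and 11.01 at the highest, and the HFD values 9.91, 10.77 and 11.09. In the 20 upper BXD strains they were 12.47, 13.39 and 14.22 on CD and 12.42, 13.04 and 13.60 on HFD. That the lower and upper strains do not overlap under either diet follows from sorting them by the gap. What the values show is that 0 of the 30 BXD strains changed side between diets. Mrpl20 was read by 1 probeset, and whether the deposited values leave out probes over polymorphisms between strains is not given. Whether the 2 ranges are a difference in transcript level or in probe binding was not tested.

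**Figure D1:**
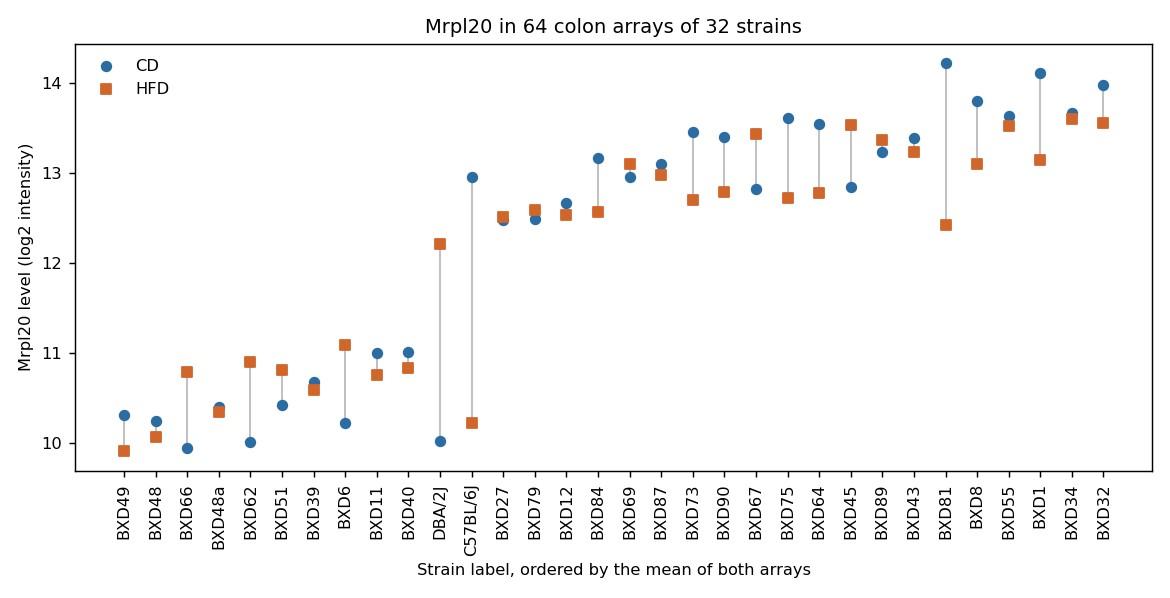
Log2 intensity of Mrpl20 (vertical axis) for each strain label (horizontal axis, ordered by the mean of both arrays), with 1 circle for the CD array and 1 square for the HFD array joined by a line. The 10 BXD strains on the left stay at or below 11.09 and the 20 on the right at or above 12.42, while DBA/2J and C57BL/6J cross the gap in opposite directions.

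The only labels that crossed the gap were the parental ones, and they crossed in opposite directions. DBA/2J had 10.03 on CD and 12.21 on HFD, and C57BL/6J had 12.96 on CD and 10.22 on HFD. Whether this is a difference of diet or of labels was not tested, and each parental strain gave only 1 array per diet. The limma F test for strain, which asks whether strains differ beyond the spread between the 2 arrays of a strain after diet, gave F = 10.65 for Mrpl20 (adjusted p = 2.89e-08 over 19503 genes). Within the 30 BXD strains alone F was 20.54 (limma, adjusted p = 3.65e-12). The 2 strains left out there were the only ones that crossed the gap, so the larger F follows from leaving them out and is no added support.

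Within each range, by contrast, the order of strains was not kept from CD to HFD beyond what the spread allowed. Over the 10 lower BXD strains the CD and HFD values gave r = 0.07 (rho = -0.14, permutation p = 0.842 and 0.706, two-sided), and without the 2 strains farthest from the CD median (BXD40 and BXD11) r = -0.26. Over the 20 upper BXD strains r was 0.20 (rho = 0.25, permutation p = 0.387 and 0.294), and -0.02 without BXD27 and BXD79. These are 2 relations with unadjusted p. A correlation over all strains would only restate the 2 ranges and is not read as a trend.

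No diet difference was detected for Mrpl20. Its HFD minus CD difference was -0.16 (SE 0.32, limma, adjusted p = 0.89), with higher values on HFD in 11 of 32 strains. The standard error was the largest among the 76 genes, whose median standard error was 0.096.

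Over all 76 genes, 10 (13.2%) were strain-dependent at an adjusted p under 0.05, against 6.38% of the 19503 genes tested. They were Mrpl20, Mrpl35, Mrpl55, Mrps24, Mrpl18, Mrpl1, Mrps21, Mrpl37, Mrps26 and Mrps15, 6 of the large and 4 of the small subunit. In 8 of them the protein is shared with bacteria, as in 47 of the 76 genes. In 2, Mrpl37 and Mrps26, it is found only in mitochondria, as in 28 of the 76. Whether these shares differ was not tested. The genes nearest the threshold on either side were Mrps26 (adjusted p = 0.0413, limma) and Mrps15 (adjusted p = 0.0455) inside, and Mrpl12 (adjusted p = 0.0518) and Mrps35 (adjusted p = 0.0693) outside. The genes lie on chromosomes 4 (Mrpl20, Mrpl37, Mrps15), 11 (Mrpl55, Mrps24), 2, 3, 5, 6 and 17.

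Mrpl35, which encodes large subunit protein bL35m, had the next smallest p. Its CD values were 9.14 at the lowest, 10.29 at the median and 10.79 at the highest, and its HFD values 9.26, 10.33 and 11.17. BXD51 was among the lowest 2 strains under both diets (9.39 on CD and 9.26 on HFD), and BXD89 was the highest under both (10.79 and 11.17). On CD 5 strains at or below 9.71 were set off from the other 27 by 0.33, but on HFD no such gap lay at that place. The F was 4.03 (limma, adjusted p = 0.00206) and the strains' CD and HFD values gave r = 0.66 (rho = 0.64, permutation p = 3e-05 and 0.00011). That correlation uses the same arrays as the F test by which the gene was named, so it is no separate support. Without BXD43 and BXD51, the strains farthest from the CD median, r was 0.59.

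Mrpl55, another large subunit gene, ran from 8.68 to 10.87 on CD (median 9.63) and from 8.42 to 11.06 on HFD (median 9.52). BXD55 was highest under both diets, with 10.87 and 11.06, and BXD12 second lowest under both, with 8.87 and 8.70. The lowest HFD value, 8.42, was that of the array labelled DBA/2J. F was 3.77 (limma, adjusted p = 0.00355) and r between diets 0.58 (rho = 0.47, permutation p = 0.00047 and 0.00687), or 0.45 without BXD55 and BXD11.

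Mrps24 of the small subunit ranged from 8.00 to 9.81 on CD and from 7.87 to 9.71 on HFD, and BXD49 was the lowest strain under both diets. Mrpl18, whose bacterial counterpart binds the smaller RNA of the large subunit, ranged from 9.97 to 11.62 on CD and from 9.79 to 11.63 on HFD, with BXD49 second lowest and BXD55 second highest under both diets. Mrpl1, a protein of the stalk beside the tRNA exit site of the large subunit, ranged from 8.06 to 9.18 on CD and from 8.20 to 9.70 on HFD. BXD49 was again its lowest strain under both diets and BXD6 among its highest 2. Between diets the strains' values gave r = 0.55 for Mrps24 (rho = 0.52, permutation p = 0.00117 and 0.00269), 0.56 for Mrpl18 (rho = 0.51, permutation p = 0.0009 and 0.00319) and 0.63 for Mrpl1 (rho = 0.64, permutation p = 0.0001 and 9e-05). Such correlations were computed for all 76 genes, and their p-values are unadjusted because the F test carries the adjustment over all genes. For these genes, as for Mrpl35 and Mrpl55, they describe the arrays that gave the F test and are no separate support for it. Because BXD49 on HFD was an array that stood apart, the calls without BXD81 and BXD49 matter here. Mrps24 and Mrpl18 stayed below the threshold without them, whereas Mrpl1 (limma, adjusted p = 0.0608), Mrpl37 (0.0757) and Mrps15 (0.0712) did not. Within the 30 BXD strains alone the only call lost was that of Mrps26 (limma, adjusted p = 0.0926).

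**Figure D2:**
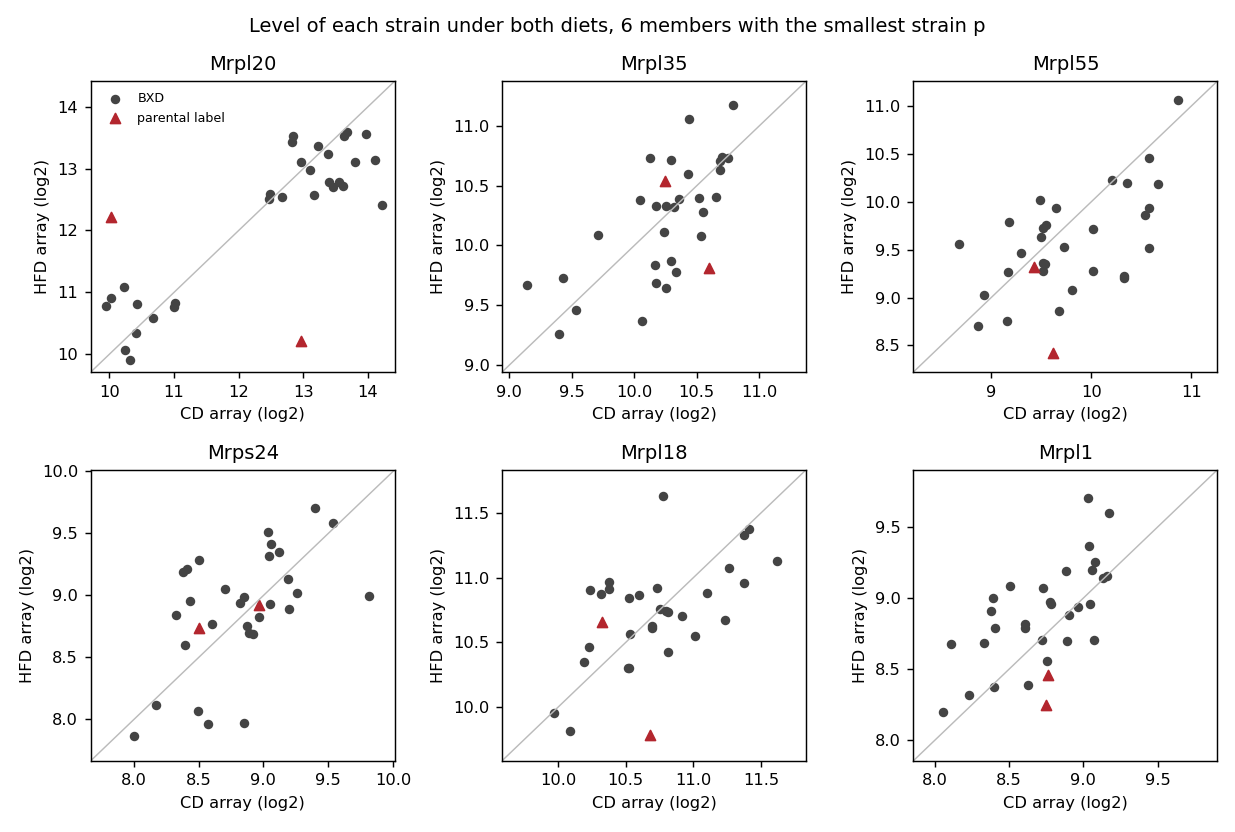
Log2 intensity on the CD array (horizontal axis) against the HFD array (vertical axis) of each strain for the 6 genes with the smallest strain p, with BXD strains as grey circles, arrays under parental labels as red triangles and a grey line where both diets are equal. Mrpl20 forms 2 clouds on the line with the parental labels off it, while Mrpl35, Mrpl55, Mrps24, Mrpl18 and Mrpl1 form single drawn-out clouds.

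How far these calls hold depended on the gene. Mrpl20, Mrpl35 and Mrpl55 passed in all 9 alternative fits, Mrps24, Mrpl18, Mrps21 and Mrps15 in 8, Mrpl1 and Mrpl37 in 6 and Mrps26 in 5. When 4 arrays rich in the Paneth cell gene Defa24 were left out (the CD array of BXD48a and the HFD arrays of BXD39, BXD49 and BXD69), 4 genes remained, Mrpl20, Mrpl35, Mrpl55 and Mrps15, against 3.91% of all genes. The part of small intestine or Paneth cell RNA in the other 6 was not tested.

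The second pattern was a movement shared by most of the genes. On each array the 76 values tended to be high or low together. The mean over the 76 genes was 9.43 ± 0.23 on CD (SD, n = 32 strains), from 9.03 in BXD6 to 9.91 in BXD81, and 9.43 ± 0.21 on HFD (SD, n = 32), from 8.94 in BXD49 to 9.79 in BXD55. BXD12 was among the lowest 3 strains under both diets (9.04 and 9.10) and BXD55 among the highest 2 (9.83 and 9.79). Over all strains, however, the mean was only loosely kept between diets (r = 0.34, rho = 0.36), and a strain's HFD minus CD difference ran from -0.68 in BXD81 to 0.57 in BXD6.

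Over 64 arrays with the diet means subtracted, each gene was correlated with the mean of the other 75, as a description with no test, since all values of an array share its RNA and its scaling. The median r was 0.55, and 45 of the 76 genes exceeded 0.5. Among all 2850 pairs of the genes 93.5% correlated above 0, with a median of 0.31, which was 0.33 within CD and 0.29 within HFD. A single component held 34.0% of the variance of the 76 genes. Without BXD81 and BXD49 the median r was 0.53, again with 45 genes above 0.5. The same counts were not made for other genes of the array or for genes of like signal. The median signal of the 76 genes was 9.17, beside 6.68 over all genes, so these counts are not read as particular to the set.

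The genes that followed the set most closely came from both subunits. They were Mrps21 (r = 0.85), Mrpl12 (0.82), Mrpl18 (0.79), Mrps33 (0.79) and Mrpl21 (0.78). Mrpl12 belongs to the stalk where translation factors bind and its protein also binds the mitochondrial RNA polymerase. Mrps21 had values from 10.75 to 12.69 on CD (median 11.67) and from 10.48 to 12.50 on HFD (median 11.84), and it was high in BXD11 and BXD75 and low in BXD49 under both diets. The closest single pair was Mrps16 with Mrps21 (r = 0.77). The promoters of Mrps21, Mrpl18, Mrpl21 and Mrps33 printed above each hold an ETS core, which was part of their choice, and that of Mrpl12 holds none of the 3 cores. Of the 67 genes with a promoter, 25 (37.3%) held an ETS core, and a link to the shared movement was not tested.

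At the other end, Mrps2, a protein where head and body of the small subunit meet, did not follow the set (r = -0.11). Its r was 0.09 within CD and -0.41 within HFD. Mrps2 ranged from 8.05 to 10.59 on CD with a median of 8.89, where BXD51 (10.59) and BXD81 (10.40) lay above the other 30 strains, which reached 9.60. On HFD it ranged from 8.18 to 9.73, and without BXD81 and BXD49 its r with the set was -0.26. Mrps11 (r = 0.14), Mrpl4 of the exit tunnel (0.21), Mrpl39 (0.24) and Mrps15 (0.25) also followed little. Mrps36, the enzyme complex protein with a ribosomal name, followed the set with r = 0.65, and Mrpl58, the hydrolase that frees stalled ribosomes, with 0.63.

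Strain dependence and shared movement were not opposites. The 10 strain-dependent genes had a median r with the set of 0.55 and the other 66 likewise 0.55. Within CD the medians were 0.48 and 0.58, and within HFD 0.61 and 0.53, with no test of the difference. Mrps21 and Mrpl18 were both strain-dependent and among the 5 closest followers, whereas Mrpl20 (r = 0.28), Mrpl35 (0.29) and Mrps15 (0.25) were strain-dependent and followed weakly. For Mrpl20 the value over all arrays and the values within its 2 ranges differed. Within the 10 lower BXD strains Mrpl20 correlated with the mean of the other 75 genes at r = 0.82 on CD and 0.79 on HFD, and within the 20 upper BXD strains at r = 0.75 on CD and 0.78 on HFD (rho between 0.61 and 0.76). Inside each range Mrpl20 moved with the set, as a description over few strains.

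**Figure D3:**
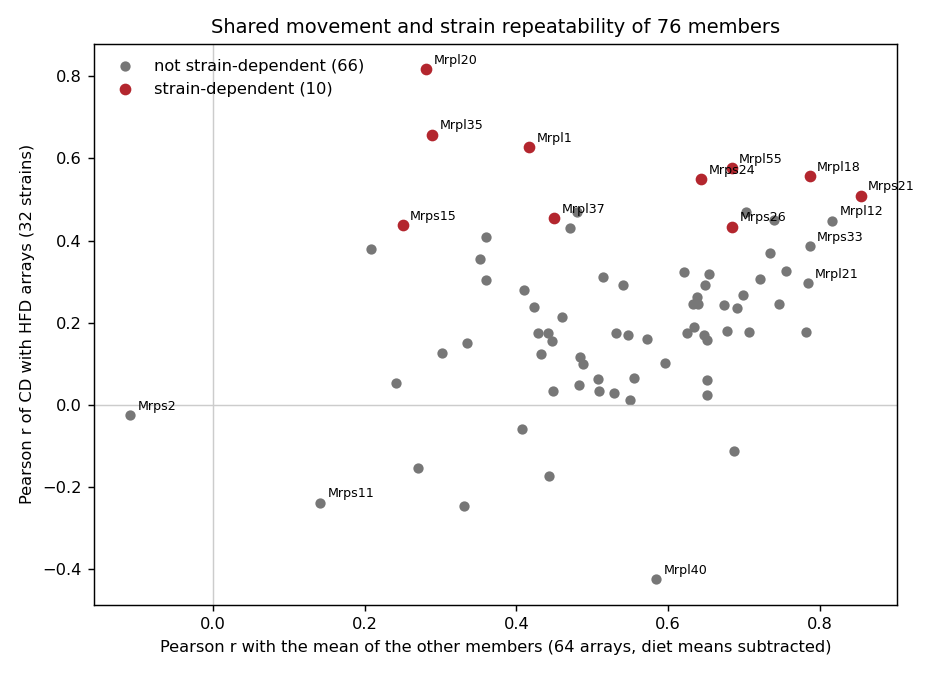
Pearson r of each gene with the mean of the other 75 over 64 arrays (horizontal axis) against the Pearson r of its CD with its HFD values over 32 strains (vertical axis), with the 10 strain-dependent genes in red and the other 66 in grey. Mrpl20 and Mrpl35 lie high on the left, Mrps21 and Mrpl18 high on the right, and Mrps2 alone lies left of 0.

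Taking the shared movement out affected the strain-dependent genes unequally. When the mean of the other genes on the same array was subtracted, the median r between diets went from 0.55 to 0.44 for the 10 strain-dependent genes and from 0.18 to 0.18 for the other 66. Mrpl35 kept its strain order between diets (r = 0.73 against 0.66 before), as did Mrpl55 (0.56 against 0.58) and Mrps21 (0.54 against 0.51). The r was higher after the subtraction in 2 of the 10, Mrpl35 and Mrps21. It was lower for Mrpl18, 0.44 against 0.56, and the subtraction lowered Mrpl1 from 0.63 to 0.30, Mrps26 from 0.43 to 0.29 and Mrpl37 from 0.45 to 0.34. Over the 76 genes, 27 had a higher r after the subtraction than before.

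The mean of the set moved with the properties of the array itself. Over 64 arrays it correlated with the array's median over all genes at r = -0.75 (rho = -0.73) and with the SD of the array's values at r = 0.71 (rho = 0.74), diet means subtracted. After quantile normalisation, which gives all arrays the same distribution and so removes the spread of the array median, the shared movement was smaller but present, with a median r of 0.49, 37 of 76 genes above 0.5 and 86.4% of pairs above 0. Centring each array on its median gave a median r of 0.60. The part of array scaling in the shared movement was not tested beyond these values.

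**Figure D4:**
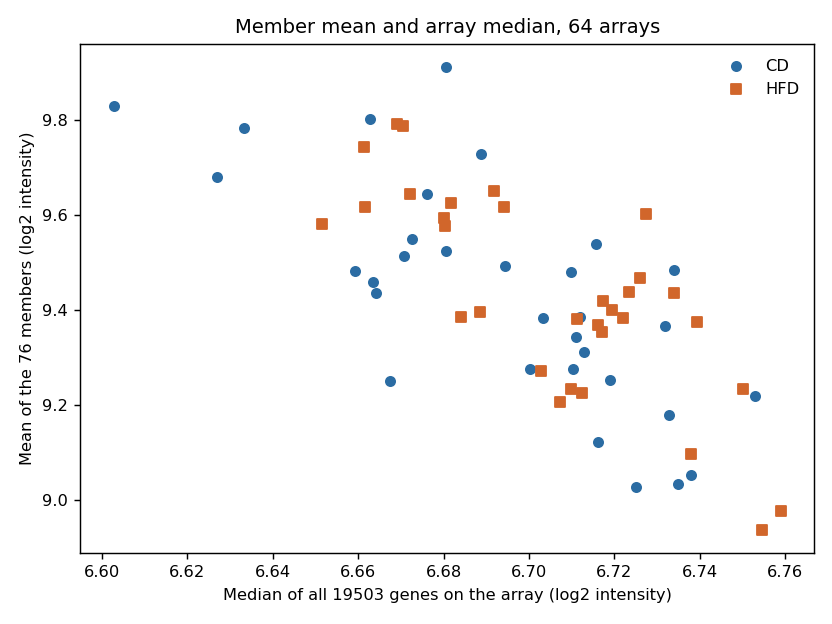
Mean log2 intensity of the 76 genes (vertical axis) against the median log2 intensity of all 19503 genes on the same array (horizontal axis), with CD arrays as circles and HFD arrays as squares. The mean falls from about 9.83 on the array with the lowest median (6.60) to 8.98 on that with the highest (6.76), and both diets lie along the same band.

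Taken as lists, other genes of mitochondrial translation moved along with the set. The mean of 15 translation factors correlated with the mean of the 76 genes at r = 0.86, the mean of 4 ribosomal proteins with other names at 0.74, of 22 assembly factors at 0.66, of 10 genes of mitochondrial transcription at 0.64 and of 16 mitochondrial tRNA synthetases at 0.58. Among single genes, the highest r were those of the initiation factor Mtif3 (0.77), the elongation factor Tufm (0.76), the ribosomal protein Chchd1 (0.74) and Slirp (0.74), which stabilises mitochondrial messages. Other genes of the lists followed little or ran the other way. Among them were the ribosomal protein Gadd45gip1 (0.14), Oxa1l of the translation factor list (0.004), the tRNA synthetase Aars2 (-0.34) and the assembly factor Nsun4 (-0.39). Gadd45gip1 (mean 4.95 on CD and 5.12 on HFD) and Aars2 (5.71 and 5.84) had signals below the median of all genes on every array. Those of Oxa1l (11.65 and 11.62) and Nsun4 (7.13 and 7.14) lay above it. The part of low signal in these r was not tested. The movement was not limited to mitochondrial translation. Over the whole array the genes most like the set, picked after their values were seen, included Cisd1 of the outer mitochondrial membrane (0.90), Hint1 (0.85), the proteasome gene Psma3 (0.85) and Uqcr10 of the respiratory chain (0.85). Regulators of mitochondrial biogenesis followed little as a list (8 genes, r = 0.11), with Gabpb1 at 0.49, Yy1 at 0.39, Nrf1 at 0.18, Gabpa at -0.27 and Ppargc1a at -0.33. Of these lists, 2 genes were strain-dependent, Slirp (limma, adjusted p = 0.0468) and Iars2, the mitochondrial isoleucyl-tRNA synthetase (adjusted p = 0.0176). Iars2 was lowest in BXD8 under both diets, with 10.32 on CD and 10.41 on HFD against medians of 11.67 and 11.63.

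Cell type markers were set beside the mean of the 76 genes, since in bulk RNA fewer cells of a type and less RNA per cell cannot be told apart. The mean of 9 colonocyte markers correlated with it at r = 0.43 (0.26 within CD and 0.65 within HFD), that of 8 smooth muscle markers at -0.35, of 8 small intestine and Paneth cell markers at -0.27, of 10 immune markers at -0.25, of 7 fibroblast and endothelium markers at -0.19, of 4 neuron and glia markers at 0.28, of 7 goblet cell markers at 0.12 and of 23 cell cycle genes at 0.29. Summarised as a mean of log2 values, the colonocyte markers ran from 15.40 to 16.67 on CD and from 15.40 to 16.37 on HFD, and the smooth muscle markers from 13.72 to 15.29 and from 13.52 to 15.27. Single markers of a list differed, from -0.17 (Slc26a3) to 0.55 (Krt8) among the colonocyte and from -0.16 (Fcgbp) to 0.41 (Zg16) among the goblet cell markers. The goblet cell marker Muc2 hardly varied (SD 0.010 on CD and 0.013 on HFD), so it adds little to its list mean. The part of tissue composition in the shared movement was not tested.

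No diet change was detected in the 76 genes. By limma none rose and none fell at an adjusted p under 0.05, against 2.18% of all genes tested (0.743% higher and 1.44% lower). At an unadjusted p under 0.05, 8 of the 76 genes (10.5%) passed, 1 higher and 7 lower, against 13.6% of all genes. When strain was added as a replicate block, 17 of the 76 (22.4%) passed that limit, against 16.3% of all genes. The median HFD minus CD difference was -0.0018, beside 0.0021 over all genes, with 37 genes above 0 and 39 below. In the same blocked fit 0 of the 76 genes were called after adjustment, against 3.52% of all genes. The mean of the 76 genes was higher on HFD in 16 strains and lower in 16, with a mean difference of -0.00029 ± 0.26 (SD, n = 32 strains). Taken gene by gene, 2 standard errors on either side of the difference reached from -0.80 (Mrpl20) to 0.50 (Mrpl3). With strain as a replicate block they reached from -0.45 (Mrpl10) to 0.48 (Mrpl48), and from -0.44 to 0.12 for Mrpl20, whose standard error was then 0.14.

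The largest rise was that of Mrpl48, a large subunit protein found only in mitochondria. On CD it had 11.42 at the lowest, 12.01 at the median and 12.62 at the highest, and on HFD 11.05, 12.32 and 13.05, so the diets overlapped over most of their range. The difference was 0.30 (SE 0.096, limma, adjusted p = 0.0876), with higher values on HFD in 21 of 32 strains. The lowest HFD value belonged to the array labelled DBA/2J, and within the 30 BXD strains the difference was 0.33 (limma, adjusted p = 0.0359), which passes the threshold. Mrpl3 of the peptidyl transferase region and Mrps14 of the small subunit had the next largest differences, 0.23 each (SE 0.13 and 0.12, limma, adjusted p = 0.465 and 0.399).

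The largest falls did not pass the test either. Mrps15 differed by -0.27 (SE 0.12, limma, adjusted p = 0.27), from a median of 7.22 on CD to 6.99 on HFD, with higher values on HFD in 10 of 32 strains. Mrpl10, at the base of the stalk where translation factors bind, differed by -0.25 (SE 0.097) and Mrpl15 by -0.24 (SE 0.10), with adjusted p = 0.184 and 0.265 by limma. On CD, BXD81 and BXD51 had the highest values of Mrpl10, 9.49 and 8.79 against a median of 7.88, and on HFD no strain exceeded 8.16. Mrps18b differed by -0.23 (SE 0.093), beside 0.17 (SE 0.10) for Mrps18c and 0.01 (SE 0.084) for Mrps18a, the other members of the bS18 family. Mrps5, linked to lifespan in worms, differed by -0.09 (SE 0.10).

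**Figure D5:**
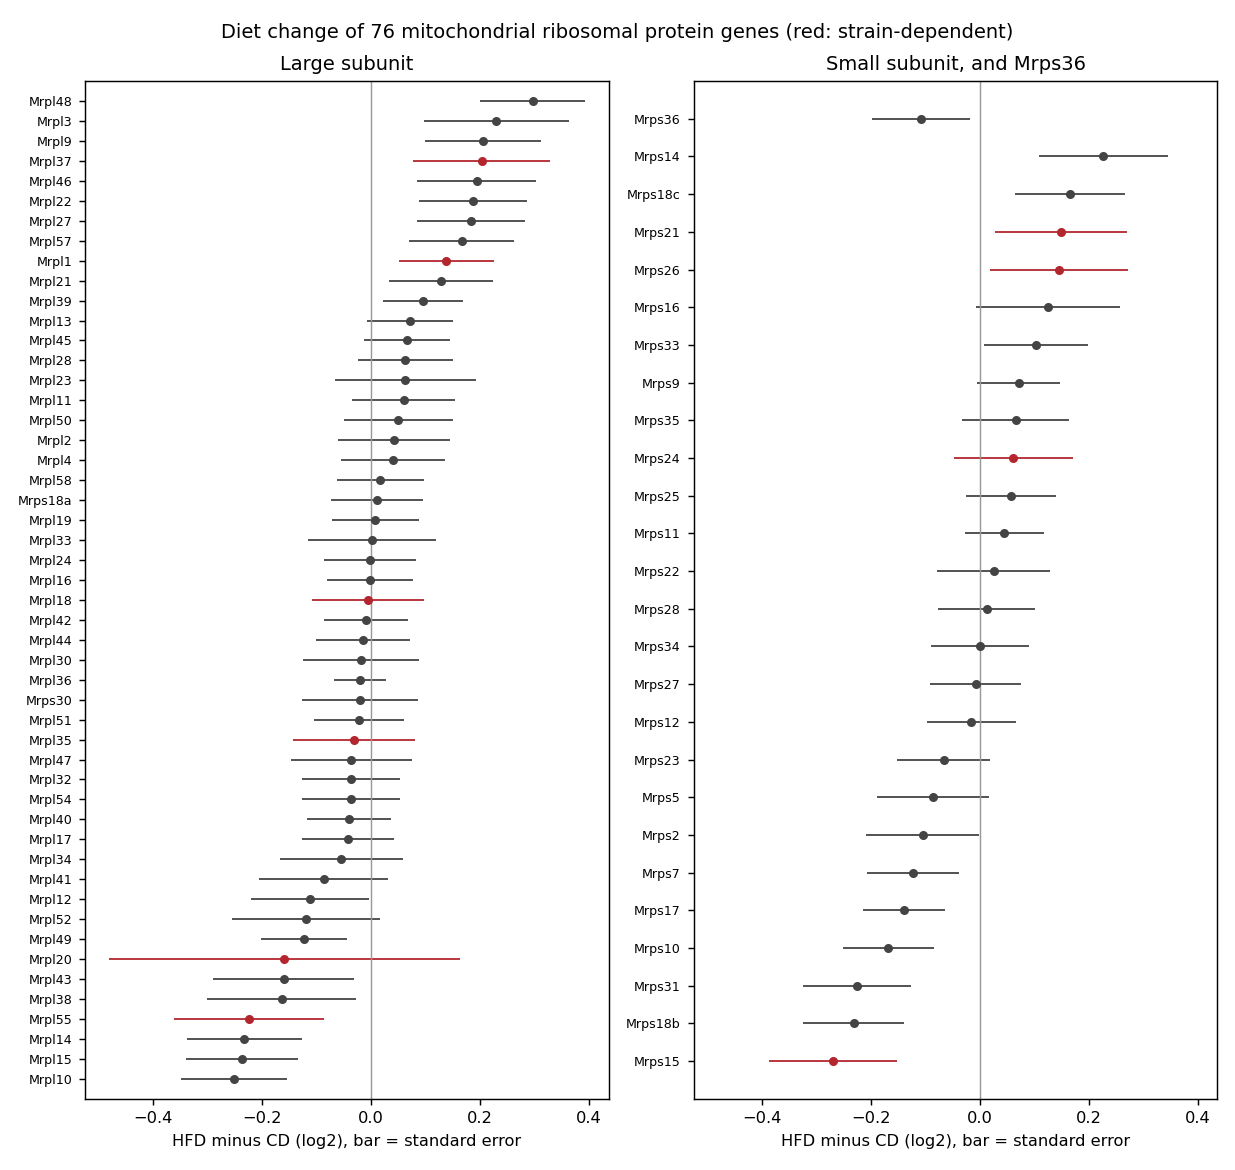
HFD minus CD difference in log2 intensity (horizontal axis) of each of the 76 genes (vertical axis), with the large subunit on the left and the small subunit with Mrps36 on the right, bars for 1 standard error and strain-dependent genes in red. Points scatter on both sides of 0 between -0.27 (Mrps15) and 0.30 (Mrpl48), and Mrpl20 has the widest bar.

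Other genes of mitochondrial translation were likewise without a call by diet. None of the 75 genes on the lists of other ribosomal proteins, assembly factors, translation factors, tRNA synthetases, transcription genes and regulators passed, and the list medians lay between 0.01 and 0.10. Ssbp1, which binds single-stranded mitochondrial DNA, came closest with a difference of 0.21 (SE 0.072, limma, adjusted p = 0.101), higher on HFD in 26 of 32 strains. On the same arrays 8 of 23 cell cycle genes rose, among them Top2a by 0.55 (SE 0.12, limma, adjusted p = 0.00571), so that the diet fit did find changes in other lists. In simulated data, however, the fit called only 29.85% of genes changed by 0.3, so changes of that size can be missed.

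The genes whose strain means were most like those of the leading strain-dependent genes were taken by the absolute r over 32 strains, as a description. They are extremes picked from all genes on the array. For Mrpl20 these were Pusl1 (r = -0.78), Nudc (0.73), Entr1 (0.67), Olfr1404 (-0.67) and Tpcn2 (-0.66). Of them only Nudc was strain-dependent itself (limma, adjusted p = 0.00258). Pusl1 (0.0869), Tpcn2 (0.161), Olfr1404 (0.486) and Entr1 (0.732) were not. Pusl1, a pseudouridine synthase-like gene, and Nudc, which acts in nuclear movement, lie on chromosome 4 like Mrpl20, with 6 and 314 array genes between. Pusl1 tended to be high where Mrpl20 was low. Its parental arrays had 8.14 on CD and 7.86 on HFD for DBA/2J and 7.45 and 8.49 for C57BL/6J. Those of Nudc had 9.37 and 9.78 for DBA/2J and 9.65 and 9.61 for C57BL/6J, so that Nudc differed little between the arrays of C57BL/6J. Since Mrpl20 has 2 ranges, these correlations mostly compare the strains of one range with those of the other. Of the 5 array genes on either side of Mrpl20, 1 of 10 was strain-dependent, the adjacent Ccnl2 (r = 0.50, limma, adjusted p = 0.0344).

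For Mrpl35 the most alike gene was Suclg1 (r = 0.72), a subunit of succinyl-CoA ligase on the same chromosome 6 with 23 array genes between, followed by Tspan5 (-0.70), Oprd1 (-0.64), Rgcc (0.64) and Cyp51 (0.62). For Mrpl55 they were Dhrs7 (0.78), Lce1c (-0.77), Stard3nl (0.76), Olfr659 (-0.75) and Mtif3 (0.75), all on other chromosomes. For Mrps24 they were Mrps28 (0.76), Hint1 (0.75), Bak1 (0.75), Svopl (-0.74) and Uqcc2 (0.72), of which Hint1 shares its chromosome 11. Of the genes alike to Mrpl35, Mrpl55 or Mrps24, only Cyp51 (limma, adjusted p = 0.0306) and Stard3nl (0.0294) were strain-dependent themselves. Among the 100 neighbours of the 10 strain-dependent genes, 4 (4%) were strain-dependent too, against 6.38% of all genes. Beside Ccnl2 these were St3gal5 near Mrpl35 (r = 0.62), Sod2 near Mrpl18 (r = 0.80, limma, adjusted p = 0.0344) and Zc3h12a near Mrps15 (r = -0.23, adjusted p = 0.0164).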

How the data were processed

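Colon RNA was hybridised to 64 Clariom S arrays, 1 per strain and diet, with RNA of about 5 mice pooled on each. Log2 intensities were made by the authors with Affymetrix Power Tools (gc-sst-rma-sketch) and used as deposited, without further normalisation. Per the methods, probes over polymorphisms between strains were to be ignored, but whether the deposited values include this step is not given in the sources used here, and it could alter levels that differ between strains. Of 22199 probesets, 19570 had 1 gene symbol and 2629 had none and were left out. The median was taken for 55 genes with several probesets, giving 19503 genes, all of which were tested. The number of arrays limits the precision.

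Diets were compared (HFD minus CD) by limma 3.58.1 in R 4.3.3, and strains by the moderated F test in the model diet and strain, with Benjamini-Hochberg adjustment over all genes at 0.05. Both scripts were tested on simulated data. The diet fit called 29.85% of genes changed by 0.3, 91.04% of those changed by 0.5 and 96.97% of those changed by 1. The strain test called 43% of genes whose SD between strains was 1 times the simulated noise, and 99% at 2 times. Each inbred strain has 1 array per diet, and a second fit had strain as a replicate block. Deviations from the diet means correlated above 0.1 in 22 of 32 pairs of the same strain label (median 0.206, against -0.00856 between strains). P-values of the main diet fit rest on the spread between pools of different strains within a diet. Those of the strain test and of the blocked fit rest on the spread between the 2 pools of a strain after diet. No pool was repeated within a strain and diet. Permutation tests used 100000 resamples. Alternatives covered scaling, filters, the variance model and the strains included. Motifs were searched in RefSeq promoters of GRCm38.p6, and neighbours were counted in the same annotation. The genes and lists were chosen with earlier results of these data known. Genes named are Mrpl20, the 12 with the smallest strain p, the 5 closest to and 5 farthest from the set, the 3 largest rises and falls, others for their roles, genes of the lists by p and the 5 most alike genes of 4 members.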

Additional observations from a re-analysis of the deposited data

How the results depend on the processing

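The count of the 76 genes that rose on HFD was 0 except for 1, Mrpl48, after quantile normalisation, 1 within the 30 BXD strains and 1 without both parental strains, BXD87, BXD89 and BXD90. Its difference was then 0.33, 0.33 and 0.37 (limma, adjusted p = 0.0412, 0.0359 and 0.0106), and over its alternatives the adjusted p ran up to 0.123. No gene fell in any alternative. With strain as a replicate block 0 genes rose and 0 fell, 17 of 76 (22.4%) had an unadjusted p under 0.05 against 16.3% of all genes, and no other call changed. The count of strain-dependent genes was 10, but 16 of 74 in the upper 60% of genes by mean (13.6% of all genes tested there) and 4 without the arrays rich in Defa24 (3.91% of all genes), and between 7 and 14 in the other alternatives. Of single genes, 14 values lost their call and 3 gained one, and 204 kept direction and side of the threshold. The 204 include the fit with the mean over probesets, which left the values of the 76 genes unchanged. No value changed sign where it was called. The causes were not tested. With 1 array per strain and diet, no array could be set against a repeat of itself.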
